A study of Homo sapiens with 6 samples.

Results

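The data follow 10 genes of the NRF2 pathway in RNA from U2OS cells, a human osteosarcoma line that grows continuously in culture. The genes were taken by symbol from the deposited count and FPKM tables, as 10 of the 44494 rows with a gene symbol, and all 10 passed the filter on low counts. They are the regulators NFE2L2, KEAP1 and MAFG and the targets HMOX1, NQO1, GCLM, GCLC, TXNRD1, SRXN1 and OSGIN1. The series holds 3 libraries titled Lv_LINC00673 and 3 titled Lv_NC, and its design text describes wild-type U2OS cells and derivatives in which the long noncoding RNA LINC00673 was knocked down. The genotype labels read LINC00673 and NC, and neither Lv nor NC is spelled out, so Lv_NC may be wild-type cells or a control vector. No drug, dose or time is given for either group. All fold changes below are Lv_LINC00673 over Lv_NC.

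NRF2, the product of NFE2L2, is a transcription factor that turns on genes for detoxification and antioxidant defence. In unstressed cells KEAP1 binds NRF2 and hands it to the CUL3 ubiquitin ligase, so the protein is short-lived. Oxidants and electrophiles modify KEAP1, NRF2 then accumulates, pairs with a small MAF protein such as MAFG and binds antioxidant response elements. BACH1 occupies the same elements as a repressor and is released from them by haem, and HMOX1 is the classic gene under this double control. Much of NRF2 regulation acts on the protein, which RNA counts do not measure.

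The antioxidant response element core TGACNNNGC was searched on both strands in RefSeq promoter windows (GRCh38.p14), which run from 250 bases before to 50 bases after a start. Such windows were found for 9 of the 10 genes, all but HMOX1, and 4 of their 12 windows held a match, belonging to GCLM, TXNRD1 and KEAP1. Over all 35116 windows 13.3% held it. None of the 6 matches overlapped the AP-1 core TGANTCA. GCLM and TXNRD1 differed between the groups, while KEAP1 did not pass the test. The windows of NFE2L2, MAFG, NQO1, SRXN1 and OSGIN1, which also differed, held no match, and neither did that of GCLC, which did not pass. All 6 sites are shown. They are written 5′ to 3′ on the gene's strand with the match in capitals, and GCNNNGTCA is the same core read on the other strand.
GCLM, minus strand, chr1:93909447-93909473: acgatttctGCTTAGTCAttgtcttcc
TXNRD1, first start, plus strand, chr12:104215671-104215697: cacgggctaTGACTTCGCtgttgtcac
TXNRD1, first start, plus strand, chr12:104215762-104215788: cgtccttcgGCTCCGTCAgttcccaca
TXNRD1, second start, plus strand, chr12:104286921-104286947: tggatttctGCTTTGTCAttctgactc
KEAP1, second start, minus strand, chr19:10502808-10502834: cttttattgTGACACGGCgggcgcccg
KEAP1, second start, minus strand, chr19:10502785-10502811: cccggctctGCTTAGTCAtggtgacct
The GCLM match began 34 bases before the start, and those of TXNRD1 began 99 and 8 bases before its first start and 102 before its second. The KEAP1 matches began 54 and 31 bases before its second start. No match in a window says only that these letters are absent from it.

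Library totals were 61815841 to 71237493 counts in Lv_LINC00673 and 76814723 to 87227980 in Lv_NC. LINC00673, the targeted gene, stood at 6.54, 6.23 and 6.38 TMM-normalized CPM (counts scaled to library size) in Lv_LINC00673 libraries 1 to 3 and at 9.16, 9.27 and 7.07 in Lv_NC. The 3 libraries labelled Lv_LINC00673 were lower, but the difference did not pass the threshold (log2 fold change -0.41, SE 0.16, edgeR adjusted p = 0.0924), and the FPKM values of the groups overlapped. The groups are therefore named by their titles. Of the defining markers, 7 of 8 mesenchymal genes and 4 of 8 osteoblast genes averaged at least 1 CPM, and 0 of 8 blood genes did, with HBB and LYZ at 0 counts. So did 2 of 6 endothelial genes (CDH5 and VWF) and 2 of 6 epithelial genes (EPCAM and CLDN4). The mesenchymal markers summed to 4197 to 4611 CPM in Lv_LINC00673 and 3387 to 3569 in Lv_NC, the osteoblast markers to 41.7 to 45.5 and 29.6 to 31.4, the endothelial markers to 5.97 to 8.17 and 4.42 to 4.88, and the epithelial markers to 21.6 to 22.5 and 16.1 to 19.4, and the part of these shifts in the results was not tested. Fold changes over all genes followed GC content (Spearman rho -0.516 across 11122 genes, which are not independent replicates) and transcript length (rho 0.455). Each of the 10 genes is therefore also given from the offset fit, which adjusts every library for GC content and length. There the correlations became 0.00893 and -0.0127, which follows from how the offset is built. The trend lies between the groups, so a technical bias and a real change cannot be told apart, and the offset removes both. The labels do not say whether the 3 libraries of each group are separate cultures, and p-values therefore measure only the spread between libraries, which may be technical.

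Most of the targets were lower in Lv_LINC00673, and the gene of the pathway's own activator was higher. HMOX1, NQO1, GCLM, SRXN1, OSGIN1, MAFG and TXNRD1 fell, NFE2L2 rose, and KEAP1 and GCLC did not pass. That is 7 lower and 1 higher of 10, where 12.5% of the 21933 genes tested were called lower and 14.3% higher, and 26.8% in either direction. The 10 genes were chosen with earlier results of these data known, so these shares describe them and are not a test. The same 7 and 1 were called in the offset fit, where 14.4% of 16894 genes were lower and 17.5% higher. The groups did not overlap in CPM for those 8 genes, against 21.4% of all genes not overlapping with Lv_LINC00673 lower and 23.7% with it higher. The median log2 fold change of the 10 genes was -0.63, beside 0.05 for all genes tested (-0.53 and 0.07 in the offset fit). In bulk RNA, fewer cells expressing a gene and less RNA per cell cannot be told apart.

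**Figure D1:**
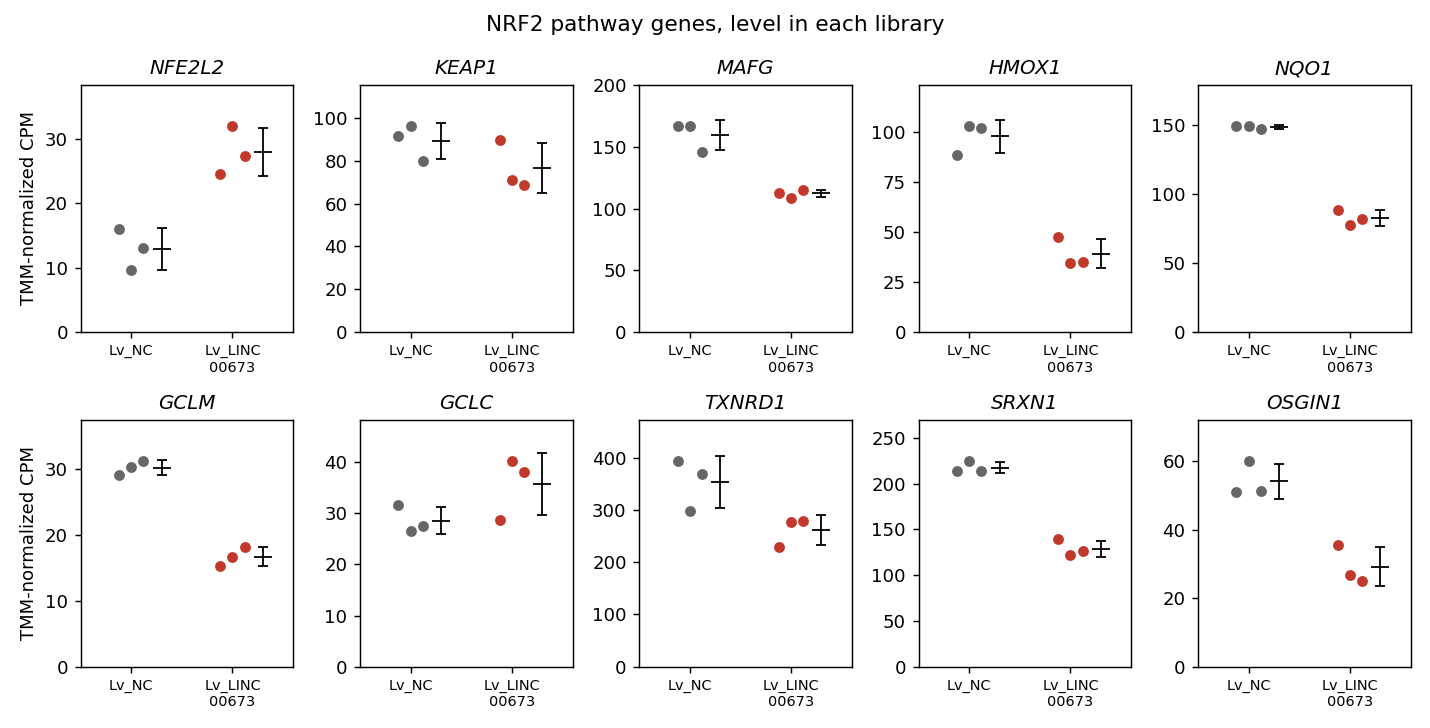
Level of each of the 10 genes in TMM-normalized CPM, with 1 point per library, for Lv_NC (grey) and Lv_LINC00673 (red); the bar beside each group is the mean ± SD (n = 3). NFE2L2 is the panel in which all red points lie above all grey points, the points of KEAP1 and GCLC overlap between groups, and in the other 7 panels all red points lie below.

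HMOX1 (chromosome 22, 35381096 to 35394207, GRCh38), which encodes the inducible enzyme that cleaves haem to biliverdin, iron and carbon monoxide, had the largest fall of the 10 without the offset. It stood at 47.7, 34.6 and 35.2 CPM in Lv_LINC00673 libraries 1 to 3 and at 88.5, 103 and 102 CPM in Lv_NC. Every Lv_LINC00673 library was well under every Lv_NC library, with library 1 of each group nearest the other group. The mean fell from 98.0 ± 8.27 to 39.1 ± 7.41 CPM (SD, n = 3), a 2.51-fold difference (log2 fold change -1.32, SE 0.14, edgeR adjusted p = 0.00256). In the offset fit the log2 fold change was -0.93 (SE 0.09, edgeR adjusted p = 0.00025).

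HMOX2, the constitutive haem oxygenase, was counted on its own row and on a numbered copy row, so neither row alone gives its level. Summed, the rows stood at 71.4, 60.2 and 62.9 CPM in Lv_LINC00673 and 100.2, 106 and 107 CPM in Lv_NC. HMOX2 was thus also lower, by a smaller amount than HMOX1 (log2 fold change of the sum -0.68, SE 0.09, edgeR adjusted p = 0.00439). With the offset the sum was at -0.32 (SE 0.06, edgeR adjusted p = 0.00355), while the own row alone, also at -0.32, did not pass (edgeR adjusted p = 0.0644). Per length, the ratio of HMOX1 to summed HMOX2 FPKM was 0.718, 0.607 and 0.559 in Lv_LINC00673 and 0.956, 0.987 and 1.02 in Lv_NC, which did not overlap.

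NQO1 (chromosome 16, 69709401 to 69726560), a quinone reductase widely used as a readout of NRF2 activity, stood at 88.3, 77.3 and 81.9 CPM in Lv_LINC00673 and at 149, 149 and 147 CPM in Lv_NC. The Lv_NC libraries differed by little and lay far above the others. The log2 fold change was -0.84 (SE 0.08, edgeR adjusted p = 0.00218), and -0.86 (SE 0.09) with the offset.

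Glutamate-cysteine ligase makes the rate-limiting step of glutathione synthesis, and its subunits did not move together. GCLM (chromosome 1, 93885199 to 93909430), the modifier subunit, stood at 15.3, 16.6 and 18.1 CPM in Lv_LINC00673 and at 29.0, 30.3 and 31.2 CPM in Lv_NC. All Lv_LINC00673 libraries lay far below all Lv_NC libraries (log2 fold change -0.86, SE 0.12, edgeR adjusted p = 0.00438). GCLM transcripts are long and poor in GC (37.3%), a class of genes that was on the whole higher in Lv_LINC00673, and the offset fit put its log2 fold change at -1.46 (SE 0.16), the lowest of the 10 there.
GCLC (chromosome 6, 53497341 to 53545101), the catalytic subunit, stood at 28.8, 40.3 and 38.2 CPM in Lv_LINC00673 and at 31.6, 26.6 and 27.5 CPM in Lv_NC. Lv_LINC00673 library 1 lay inside the range of Lv_NC and the other two lay above it. The difference did not pass (log2 fold change 0.32, 95% interval -0.01 to 0.66, edgeR adjusted p = 0.139; offset fit 0.10, interval -0.11 to 0.31). Without Lv_LINC00673 library 1 and no offset it passed as higher (0.44, edgeR adjusted p = 0.0271). Without that library in the offset fit it did not pass (0.18, edgeR adjusted p = 0.181).

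The ratio of GCLM to GCLC FPKM was 0.404, 0.314 and 0.362 in Lv_LINC00673 and 0.704, 0.868 and 0.868 in Lv_NC. The modifier message was thus a smaller share of the pair in every Lv_LINC00673 library. This ratio and those of HMOX1 to HMOX2, NFE2L2 to KEAP1 and NQO1 to NFE2L2 were chosen after the values were seen. Each of the 4 had an exact two-sided permutation p of 0.1, the smallest that 3 against 3 libraries allow, also after Benjamini-Hochberg adjustment over the 4.

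The thioredoxin arm fell by less than HMOX1. SRXN1 (chromosome 20, 646615 to 653200), encoding sulfiredoxin, which repairs over-oxidised peroxiredoxins, stood at 139, 122 and 126 CPM in Lv_LINC00673 and at 214, 225 and 214 CPM in Lv_NC. The groups were far apart (log2 fold change -0.75, SE 0.08, edgeR adjusted p = 0.0029; -0.49, SE 0.05, with the offset).
TXNRD1 (chromosome 12, 104215779 to 104350307), the cytosolic thioredoxin reductase, stood at 229, 276 and 279 CPM in Lv_LINC00673 and at 394, 298 and 368 CPM in Lv_NC. Here the gap was narrow, since Lv_NC library 2 lay close to Lv_LINC00673 library 3. The log2 fold change was -0.43 (SE 0.13, edgeR adjusted p = 0.0339), and -0.66 (SE 0.06, edgeR adjusted p = 0.00018) with the offset. The call of TXNRD1 was lost with library totals as scaling (-0.27, edgeR adjusted p = 0.188) and on FPKM values, which overlapped between groups (-0.27 on the log2(FPKM + 1) scale, limma adjusted p = 0.189). In the fit with no offset it was also lost without Lv_LINC00673 library 1, 2 or 3 (edgeR adjusted p = 0.0586, 0.0625 and 0.0694) and without Lv_NC library 1 or 3 (0.0833 and 0.105). In the offset fit TXNRD1 passed with any 1 library left out (-0.70 to -0.62, edgeR adjusted p at most 0.00193).

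OSGIN1 (chromosome 16, 83953240 to 83966332), an oxidant-induced growth inhibitor, stood at 35.6, 26.8 and 25.1 CPM in Lv_LINC00673 and at 51.1, 60.1 and 51.3 CPM in Lv_NC. As with HMOX1, Lv_LINC00673 library 1 was the highest of its group and still under all Lv_NC libraries. The log2 fold change was -0.89 (SE 0.15, edgeR adjusted p = 0.00607), and -0.58 (SE 0.09) with the offset. OSGIN1 overlaps NECAB2, which had 3.55 ± 0.887 CPM in Lv_LINC00673 and 4.44 ± 0.523 CPM in Lv_NC (SD, n = 3), and that difference did not pass (log2 fold change -0.32, edgeR adjusted p = 0.305).

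**Figure D2:**
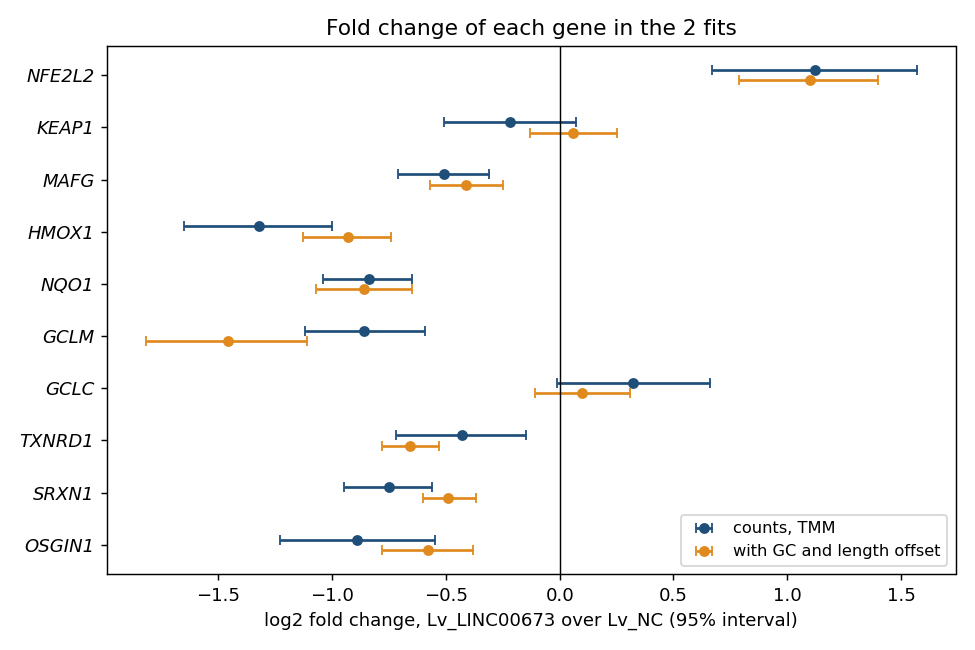
Log2 fold change of each of the 10 genes (x axis, Lv_LINC00673 over Lv_NC) with its 95% interval, from counts scaled by TMM (blue) and from the offset fit (orange). The offset moved HMOX1, SRXN1 and OSGIN1 towards 0 and GCLM and TXNRD1 away from it, and left NFE2L2 and NQO1 nearly in place.

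Among the regulators, NFE2L2 went against its targets. NFE2L2 (chromosome 2, 177230303 to 177264727) stood at 24.5, 32.0 and 27.4 CPM in Lv_LINC00673 and at 16.0, 9.59 and 13.1 CPM in Lv_NC. The lowest Lv_LINC00673 library was above the highest Lv_NC library, and the mean was 2.17-fold higher (log2 fold change 1.12, SE 0.20, edgeR adjusted p = 0.00718). The offset hardly changed it (1.10, SE 0.14, edgeR adjusted p = 0.000665).
KEAP1 (chromosome 19, 10486125 to 10503356), its inhibitor, stood at 90.0, 71.0 and 68.8 CPM in Lv_LINC00673 and at 91.7, 96.3 and 80.1 CPM in Lv_NC. Lv_LINC00673 library 1 was level with Lv_NC and the other two were below it, and the test was not passed (log2 fold change -0.22, 95% interval -0.51 to 0.07, edgeR adjusted p = 0.228). With the offset the sign turned (0.06, interval -0.13 to 0.25), and without Lv_LINC00673 library 1 and no offset it passed as lower (-0.37, edgeR adjusted p = 0.0352).

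MAFG (chromosome 17, 81918270 to 81931244), the small MAF partner of NRF2 and itself an NRF2 target, stood at 113, 109 and 115 CPM in Lv_LINC00673 and at 167, 167 and 146 CPM in Lv_NC. It fell by less than HMOX1, and the groups did not overlap (log2 fold change -0.51, SE 0.09, edgeR adjusted p = 0.00666; -0.41 with the offset). A noncoding gene deposited as MAFG-DT lies across its start, at 6.59 ± 0.745 CPM in Lv_LINC00673 and 8.39 ± 1.05 CPM in Lv_NC (SD, n = 3). Whether counting used the strand was not stated, and without strand the reads of overlapping genes cannot be told apart.

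The ratio of NFE2L2 to KEAP1 FPKM was 0.277, 0.460 and 0.406 in Lv_LINC00673 and 0.177, 0.0915 and 0.168 in Lv_NC. The activator message was higher against its inhibitor in every Lv_LINC00673 library. FPKM ratios are not corrected for GC content, which was 45.6% for NFE2L2 and 60.3% for KEAP1. The ratio of NQO1 to NFE2L2 FPKM went the other way, at 3.59, 2.40 and 2.97 in Lv_LINC00673 and 9.33, 17.1 and 11.1 in Lv_NC.

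**Figure D3:**
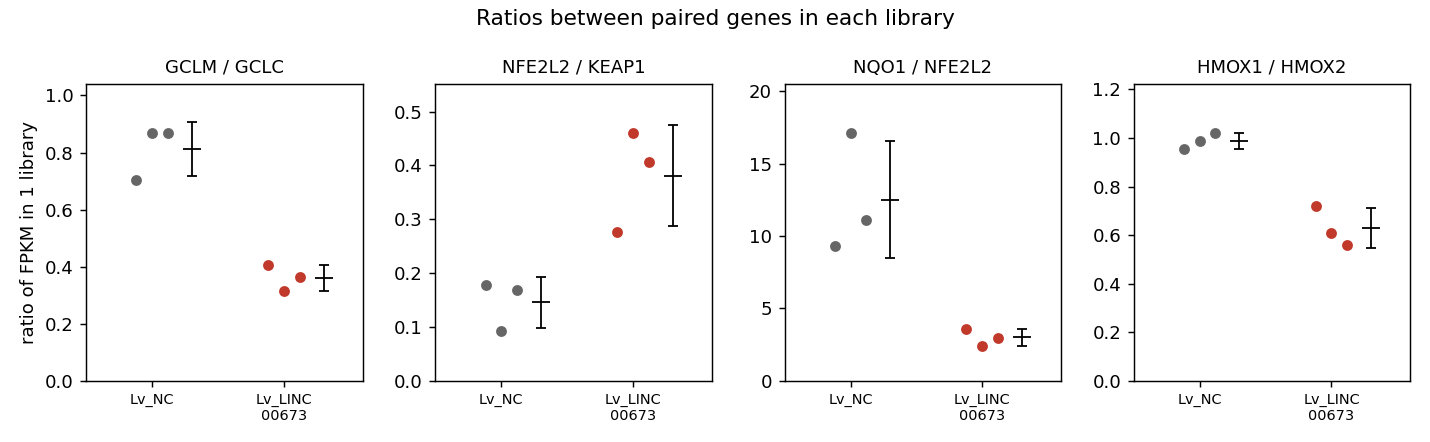
Ratios of FPKM within each library, from left to right GCLM to GCLC, NFE2L2 to KEAP1, NQO1 to NFE2L2 and HMOX1 to HMOX2 (its rows summed); each point is a library and the bar is the mean ± SD (n = 3). In all 4 panels the groups do not overlap, and NFE2L2 to KEAP1 is the panel in which Lv_LINC00673 is higher.

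Per length, the targets of the thioredoxin arm were the most abundant of the 10 messages. In Lv_NC the order of mean FPKM was TXNRD1 (87.7), SRXN1 (78.3), HMOX1 (57.4), NQO1 (53.9), KEAP1 (32.0), MAFG (29.0), OSGIN1 (25.6), GCLC (6.88), GCLM (5.55) and NFE2L2 (4.60). Of these neighbours, SRXN1 and HMOX1, NQO1 and KEAP1, OSGIN1 and GCLC, and GCLC and GCLM did not overlap between libraries, and the other neighbours did. In Lv_LINC00673 the order was TXNRD1 (72.4), SRXN1 (51.9), NQO1 (33.5), KEAP1 (30.6), HMOX1 (25.6), MAFG (22.8), OSGIN1 (15.4), NFE2L2 (11.5), GCLC (9.67) and GCLM (3.43). HMOX1 came after NQO1 and KEAP1 there, and NFE2L2 came before GCLC and GCLM. In that group NQO1 and KEAP1, KEAP1 and HMOX1, HMOX1 and MAFG, and NFE2L2 and GCLC overlapped between libraries, and OSGIN1 and NFE2L2 met at 13.4 FPKM.

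Other genes of the pathway were taken from a list of 58 grouped by role, also chosen with earlier results of these data known. Of the 58, 56 passed the filter. Of these, 24 fell and 5 rose, beside the 12.5% lower and 14.3% higher among all genes, with a median log2 fold change of -0.35. In the offset fit 25 fell and 4 rose with a median of -0.26, beside 14.4% lower and 17.5% higher among all genes in that fit. Of these calls, 17 of the lower and 3 of the higher were the same genes as without the offset. With library totals as scaling 19 fell and 7 rose, beside 1225 lower and 4049 higher of all 21933 genes. Without Lv_LINC00673 library 3 the count was 18 and 1, beside 1172 and 1660 of 22634 genes. Without Lv_NC library 3 it was 19 and 1, beside 1335 and 1578 of 22863 genes.

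Of 13 further regulators, 3 fell and 2 rose, beside 12.5% lower and 14.3% higher among all genes. With the offset 4 fell and 1 rose, beside 14.4% and 17.5%. BACH1, the repressor at NRF2 sites, stood at 17.7, 31.1 and 24.6 CPM in Lv_LINC00673 and at 14.6, 8.35 and 10.4 CPM in Lv_NC. It rose together with NFE2L2 (log2 fold change 1.14, SE 0.26, edgeR adjusted p = 0.0145), and by less with the offset (0.51, edgeR adjusted p = 0.0136). CUL3, the ligase scaffold, rose without the offset (0.86, edgeR adjusted p = 0.00904) and did not pass with it (0.16, edgeR adjusted p = 0.197). MAFF, a small MAF gene, fell from 171 ± 9.31 to 96.5 ± 7.02 CPM (log2 fold change -0.82, edgeR adjusted p = 0.00287), and the KEAP1-binding phosphatase gene PGAM5 from 156 ± 4.34 to 106 ± 5.05 CPM (SD, n = 3). With the offset MAFF was at -0.48 and PGAM5 at -0.29, and both passed. SQSTM1, which encodes the autophagy receptor p62 that sequesters KEAP1, was split over a pair of rows. Its own row did not pass (-0.33, edgeR adjusted p = 0.218), while the rows summed stood at 474, 402 and 429 CPM in Lv_LINC00673 against 697, 747 and 737 CPM and fell (-0.74, SE 0.09, edgeR adjusted p = 0.00296; -0.46 with the offset, edgeR adjusted p = 0.000251).

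Of 9 further haem and iron genes, 5 fell and 1 rose, beside 12.5% lower and 14.3% higher among all genes. With the offset 5 fell and 1 rose, beside 14.4% and 17.5%, and 4 of the lower calls were the same genes. These counts take HMOX2 by its own row, which did not pass with the offset. The ferritin genes FTL and FTH1, which store iron, fell with log2 fold changes of -0.93 and -0.66. The haem transporter gene SLC48A1 fell with -0.68 (with the offset the 3 values were -0.47, -0.33 and -0.40). Ferritin genes have many processed pseudogenes, so their counts are uncertain. Here the higher gene was the iron exporter SLC40A1, named after its value was seen (log2 fold change 0.65, edgeR adjusted p = 0.023; 0.36 with the offset, edgeR adjusted p = 0.0352).

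Of 9 further glutathione genes, 3 fell and 0 rose, beside 12.5% lower and 14.3% higher among all genes. With the offset 5 fell and 1 rose, beside 14.4% and 17.5%. The amino acid carrier chain SLC3A2 fell from 738 ± 62.4 to 471 ± 35.1 CPM, glutathione synthetase GSS from 156 ± 6.71 to 107 ± 13.0 CPM and the transferase GSTP1 from 905 ± 49.1 to 636 ± 57.3 CPM (SD, n = 3). With the offset SLC3A2 and GSS passed at log2 fold changes of -0.29 and -0.26, and GSTP1 did not pass (-0.07, edgeR adjusted p = 0.266). The gene that rose with the offset was the glutamyltransferase GGT1, named after its value was seen (0.49, edgeR adjusted p = 0.00398, from 0.18 and 0.338 without it). The cystine importer SLC7A11 stood at 25.6, 37.0 and 33.5 CPM in Lv_LINC00673 and at 32.8, 29.6 and 27.9 CPM in Lv_NC, which overlap. Its result depended on the offset, from a log2 fold change of 0.09 (edgeR adjusted p = 0.697) to -0.77 (edgeR adjusted p = 0.00197). Its transcript is long and has 35.4% GC.

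All 3 further thioredoxin genes fell by small amounts without the offset, and 2 of them with it. Among all genes 12.5% were lower without the offset and 14.4% with it. TXN, PRDX1 and PRDX6 had log2 fold changes of -0.34, -0.41 and -0.29. With the offset TXN and PRDX6 passed at -0.38 and -0.24, and PRDX1 did not pass (-0.05, edgeR adjusted p = 0.637). Of 14 tested genes for quinones, carbonyls and export, 4 fell and 2 rose, beside 12.5% lower and 14.3% higher among all genes. With the offset 2 fell (NQO2 and ABCC1) and 1 rose, beside 14.4% lower and 17.5% higher among all genes in that fit. ABCC1 did not pass there once its numbered copy row was summed with it (-0.12, edgeR adjusted p = 0.203). NQO2 fell by 0.63 on the log2 scale and PIR by 0.83, while the conjugate exporter genes ABCC4 and ABCC2 rose by 0.94 and 0.76. With the offset NQO2 passed at -0.91, where its longest transcript, of 10084 bases, was used. That transcript need not be the one expressed. In Lv_NC library 1 NQO2 stood at 12.2 CPM and 9.91 FPKM, and SLC7A11, of 9645 bases, at 32.8 CPM and 3.14 FPKM. The deposited FPKM thus used a much shorter length for NQO2, so its offset value is uncertain. ABCC4 passed at 0.47 there, and PIR and ABCC2 did not pass (edgeR adjusted p = 0.11 for each). The other lower calls of this class, the reductase genes AKR1B1 and CBR1, did not pass with the offset either (edgeR adjusted p = 0.208 and 0.729). Several classic targets of this class, named after their values were seen, were scarce: AKR1B10, AKR1C1, CBR3 and ALDH3A1 averaged under 1 CPM in both groups, AKR1C2 did not pass the filter and UGT1A6 had 0 counts in all 6 libraries.

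Genes of NADPH supply fell at 4 of 6 with 0 higher, and at 5 of 6 with the offset. Among all genes 12.5% were lower without the offset and 14.4% with it. The transketolase gene TKT, of the pentose phosphate pathway, fell from 762 ± 32.8 to 466 ± 61.4 CPM (SD, n = 3). PGD and TALDO1 had log2 fold changes of -0.57 and -0.46. With the offset TKT and PGD passed at -0.43 and -0.24, and TALDO1 did not pass (-0.03, edgeR adjusted p = 0.738). The related tripartite motif genes TRIM16 and TRIM16L fell too, with log2 fold changes of -0.73 and -1.01 (-0.54 and -0.71 with the offset, both passing). Their sequences are similar, so reads may be split between them.

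**Figure D4:**
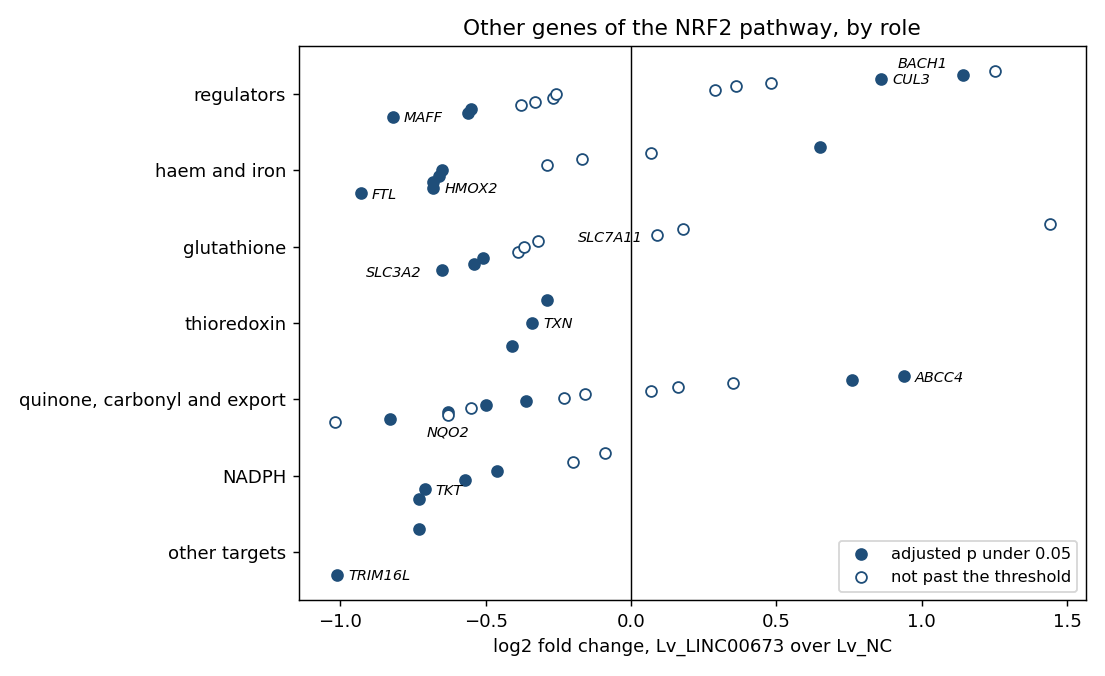
Log2 fold change (x axis, Lv_LINC00673 over Lv_NC) of the 56 tested further genes of the pathway by role (y axis), without the offset; each point is a gene, spread vertically within its role, filled where the edgeR adjusted p is under 0.05. Filled points lie to the left in every role, and BACH1, CUL3 and ABCC4 are among the 5 filled points on the right.

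On CPM without the offset, the genes whose profile over the 6 libraries was nearest that of HMOX1 were not among the 10. By the root mean square difference of mean-centred log2 CPM, among 9506 genes of at least 10 CPM, they were NR4A1 (0.082), PPP1R15A (0.0904), TAGLN (0.0985), CSF2 (0.117) and CCN1 (0.132). The nearest of the 10 were OSGIN1 at rank 40 (0.23), NQO1 at rank 70 (0.276), SRXN1 at rank 112 (0.312) and GCLM at rank 139 (0.324). NFE2L2 came at rank 9052. This measure includes the difference between the groups and was not run with the offset, where the order may differ. The log2 fold change of HMOX1 there was -0.93. NR4A1, PPP1R15A, TAGLN, CSF2 and CCN1 were at -1.04, -0.99, -0.94, -0.84 and -1.28. OSGIN1, NQO1, SRXN1 and GCLM were at -0.58, -0.86, -0.49 and -1.46.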

How the data were processed

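Total RNA of 6 U2OS libraries was sequenced after TruSeq preparation, per the labels' protocols. The authors deposited raw counts per gene and FPKM values per gene, with hg38 as the build per the submitters' processing notes; for the aligner, counter, length model and strand setting, the sources used here give nothing. All 6 columns of each table were matched by name to a library title, with 0 left over. Rows without a gene symbol held 3.22 to 4.26% of counts and stayed in the fit. After filterByExpr and TMM scaling, the two-sided robust quasi-likelihood test of edgeR 4.0.16 (R 4.3.3) was run on 21933 genes, adjusted by Benjamini-Hochberg with a threshold of 0.05; the fit was tested on simulated data. SE is the log2 fold change over the square root of F. The offset fit used splines of GC content and length of the longest GENCODE 29 transcript of each gene. Retained-intron, decay and processed-transcript types were taken only where a gene had no other. The fit covered 80.8% of tested genes with symbols, and LINC00673 had no match there. Coordinates are 1-based, from RefSeq (GRCh38.p14).

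The members and lists were chosen with earlier results of these data known. Named beside the 10 members were, in each role, up to 4 further genes past the threshold with the largest change and at least 1 CPM, plus HMOX2, BACH1, SQSTM1, MAFF and SLC7A11; 1 gene that this rule named is not reported here. Alternatives were RLE and upper-quartile factors, library totals, other filters, limma-voom (limma 3.58.1), DESeq2 1.42.0, a replicate block, non-robust settings, limma on log2(FPKM + 1) and log2(FPKM + 0.1), the offset and leaving out each library. Summing numbered copy rows, without and with the offset, and leaving out libraries within the offset fit were added after seeing the data. No pair of libraries agreed within counting noise, so none was taken as a library deposited again; this does not show that they came from separate cultures.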

Additional observations from a re-analysis of the deposited data

How the results depend on the processing

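NFE2L2, HMOX1, NQO1, GCLM, SRXN1 and OSGIN1 kept their direction and passed the threshold in all 28 alternatives run, with log2 fold changes of 0.94 to 1.33, -1.51 to -0.87, -0.95 to -0.67, -1.61 to -0.57, -0.83 to -0.47 and -1.07 to -0.50. TXNRD1 kept its direction and lost its call in 10 of them, and MAFG lost it in 2, the replicate block (-0.50, adjusted p = 0.0547) and log2(FPKM + 1) over all rows above 0 (-0.33, adjusted p = 0.0704). KEAP1 changed sign in the offset fit (0.06), in that fit with the replicate block (0.06) or with numbered copies summed (0.06) and there without Lv_LINC00673 library 1, 2 or 3 (0.02, 0.06 and 0.11) or Lv_NC library 1 or 2 (0.11 and 0.08). The count of the 10 genes past the threshold was 6 to 9, and 7 to 9 with 1 library left out. Deviations from the group means correlated at -0.423, -0.36 and 0.041 between same-numbered libraries. Between differently numbered libraries they correlated at -0.141 to 0.449, the highest for Lv_LINC00673 library 1 with Lv_NC library 2. Deviations within a group sum to 0, so these values cannot tell whether the libraries were prepared in pairs. With the replicate block 6 of the 10 genes, 11 of the further 56 and 1208 of all genes passed, and with the offset and the block 8, 20 and 3857. On log2(FPKM + 1) over all rows above 0 these were 6, 12 and 1536. With 1 library left out, 2716 to 6490 genes passed (2716 and 2832 without Lv_LINC00673 library 2 and 3, 3631 and 2913 without Lv_NC library 2 and 3), as did 19 (without Lv_LINC00673 library 3) to 30 of the further list, and in the offset fit 3533 (without Lv_LINC00673 library 2) to 5272, with 3908 without Lv_NC library 2, and 19 (without Lv_LINC00673 library 2) to 29. The cause was not tested. LINC00673 passed in none of 19 alternatives (adjusted p = 0.0637 to 0.441).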

Other observations

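The Lv_LINC00673 libraries were not alike, and this was not particular to these genes, since the libraries came in the same order over all genes. On the log2 CPM scale, library 1 was the nearest of the 3 to the Lv_NC mean for 7 of the 10 genes (NFE2L2, KEAP1, HMOX1, GCLC, SRXN1, NQO1 and OSGIN1), library 3 for the other 3 and library 2 for 0. Over all 21933 genes tested the shares were 50.6% for library 1, 28% for library 3 and 21.3% for library 2. Beside SLC7A11 and GGT1, 7 further genes of the pathway, named after their values were seen, did not pass without the offset and passed with it. These were FECH, MGST1, GSTM3, ME1, IDH1, GSK3B and ABCC1, all lower, at log2 fold changes of -0.39, -0.68, -0.48, -0.50, -0.35, -0.32 and -0.26. ABCC1 also has a numbered copy row, and the rows summed did not pass with the offset (-0.12, edgeR adjusted p = 0.203).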
